A study of Mus musculus with 220 samples.

Results

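Inflamed and dedifferentiated high endothelial cells (HEC) of the mouse lymph node were compared with each other directly, without untreated cells between them. The comparison took every cell carrying either label, which was 109 of the 220 cells of the series and 108 of 219 once the inflamed cells 43 and 60, whose profiles were nearly the same (Pearson's r of their log2 values 0.988, next closest pair 0.701), were averaged and counted as 1 cell. All mice were C57BL/6. The 64 inflamed HEC came from lymph nodes on day 3 after 4% oxazolone, a contact sensitiser, was put on the skin. The 44 dedifferentiated HEC came from lymph nodes 7 days after LTBR-Ig was injected into the peritoneum, 1 time; it is a decoy that binds the ligands of the lymphotoxin β receptor. The mice of both groups were thus treated, and their treatments differed in agent, route and day of harvest. Nodes were dissociated, endothelial cells were sorted, and cDNA was made from single cells on a Fluidigm C1 device before Nextera XT library preparation and sequencing. Neither the animals, the chips nor the sort gate are named, so each group counts as 1 sample: no p-value, standard error or test was computed, and treatment, chip and harvest day cannot be told apart.

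HEC line the venules through which lymphocytes enter lymph nodes from the blood. They present sulfated and fucosylated sialomucins that L-selectin on lymphocytes grips, display the chemokine CCL21 to arrest rolling cells, and depend on lymphotoxin β receptor signalling through NF-kB to keep this specialised state. During an immune response the same vessels meet interferons and inflammatory cytokines, make P- and E-selectin, and are rebuilt as the node grows.

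Values are FPKM, fragment numbers divided by transcript length and by the cell's total, so that levels can be set side by side between genes. Each gene was summarised by log2(FPKM + 1), as mean and SD over cells, and a difference is the inflamed minus the dedifferentiated mean on that scale. On that scale the ratio of weakly expressed genes is understated. A gene is said to be detected in a cell at an FPKM of at least 1. The approximated depth was alike, with 708948 to 3407665 fragments (median 2108606) in inflamed and 791383 to 2903820 (median 2066956) in dedifferentiated cells, but the median inflamed cell had 3961 genes detected and the median dedifferentiated cell 3075. Because of that gap, differences were also computed in 29 pairs of cells, 1 from each group, with gene numbers within 10% of each other (matched cells), and as the log2 ratio of arithmetic means + 1 (arithmetic means). Both groups carried markers of their cell type: at least 3 of 9 HEC markers and 3 of 12 blood endothelial markers stood at an FPKM of 10 in all 108 cells. The lymphatic markers Prox1 and Reln, 4 of 10 myeloid markers (Lyz2, Emr1, S100a8 and S100a9) and the platelet markers Gp9 and Ppbp were listed at 0 in all of them. Of the other myeloid markers Cd14, the lipopolysaccharide co-receptor, was higher in dedifferentiated HEC: it was detected in 15 of 44 dedifferentiated and 7 of 64 inflamed cells (difference -1.39). Summed log2 levels of the myeloid markers ran from 0 to 8.91 in inflamed and from 0 to 11.5 in dedifferentiated cells, and no cell held 3 of them at FPKM 10. At least 3 markers of another cell type, mostly pan-leukocyte genes, were held by 6 of 64 inflamed cells (9.38%) and 4 of 44 dedifferentiated cells (9.09%). Summed log2 levels of the pan-leukocyte markers ran from 0.85 to 58 in inflamed cells and from 1.93 to 43.1 in dedifferentiated cells. Intervals on shares of cells are exact Clopper-Pearson 95% intervals and cover counting error over cells only.

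Inflamed HEC stood above dedifferentiated HEC at many more genes than they stood below. Of 9167 genes at an FPKM of at least 1 in over 10% of either group's cells, 15.8% were higher by 1 or more in inflamed HEC and 1.32% were higher by 1 or more in dedifferentiated HEC, and the median difference over all of them was 0.40. The imbalance moved with the number of genes detected: in matched cells the shares were 7.19% and 5.83% and the median difference was 0.08, and with arithmetic means the shares were 22.1% and 13.9%. Of the genes past 1 in either direction, 92.3% were higher in inflamed HEC in all cells, 72.3% after scaling by median-ratio size factors, 61.4% with arithmetic means and 55.2% in matched cells. Whether the higher gene number of inflamed cells belongs to the treatment was not tested. Counts for gene groups are therefore given beside those in matched cells and with arithmetic means. They are to be read against these shares of all genes.

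**Figure D1:**
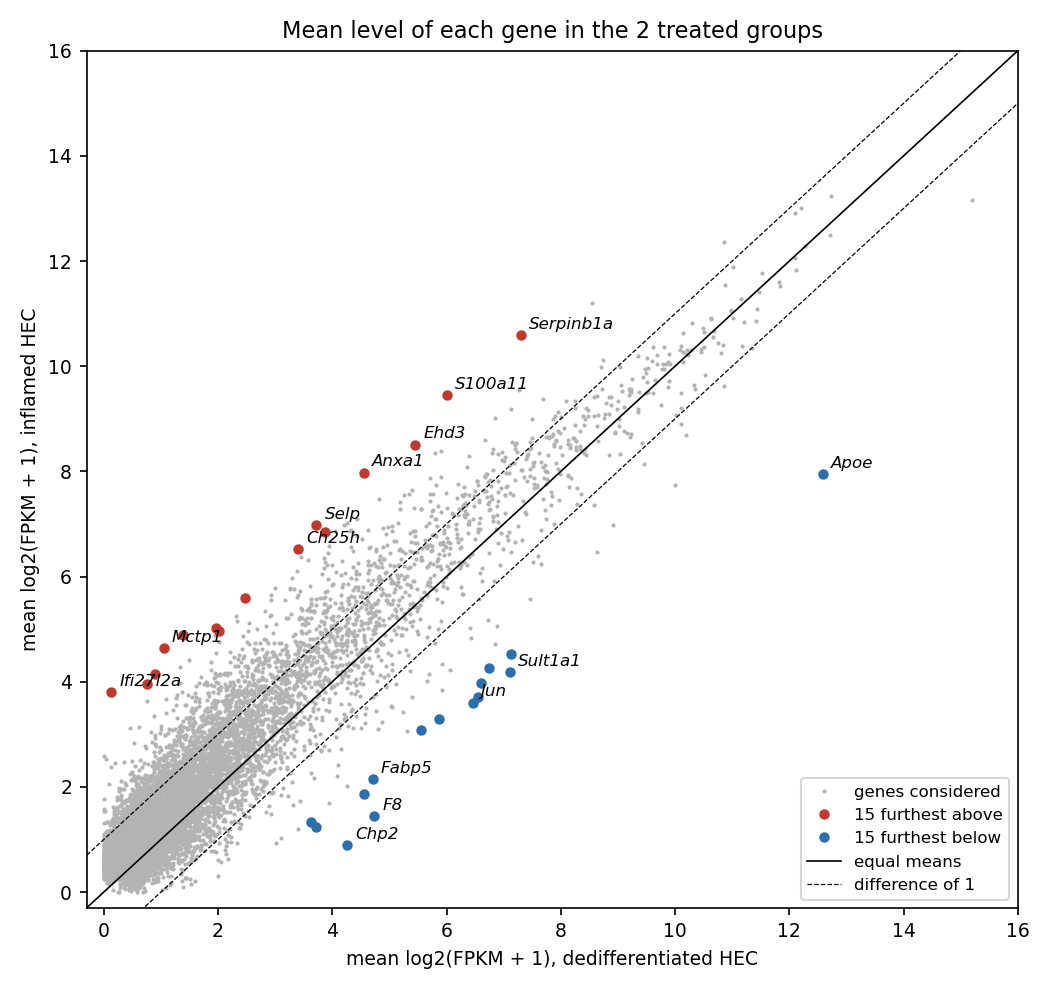
Mean log2(FPKM + 1) of each of the 9167 genes considered in dedifferentiated HEC (x axis, 44 cells) and inflamed HEC (y axis, 64 cells). Red and blue points are the 15 genes furthest above and below the line of equal means, and dashed lines mark a difference of 1. More of the cloud lies above the line than below it (median difference 0.40), and Apoe, S100a11 and Serpinb1a stand apart at high levels.

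The genes furthest higher in inflamed HEC were of many kinds. The 15 with the largest differences among genes detected in at least 50% of one group's cells were, in order, Ifi27l2a, Mctp1, Nudt4, S100a11, Anxa1, Serpinb1a, Selp, Tnfrsf9, Col18a1, Ch25h, Mcam, Nid1, Ehd3, Tmem258 and Oasl2. Their differences ran from 2.95 to 3.68. They ran from 1.46 to 3.35 in matched cells, where all 15 stayed at 1 or more, and from 0.93 to 7.49 with arithmetic means, where Anxa1 alone was below 1. These genes were chosen by the size of their difference, so their values are a description. Of the 3233 genes that could be chosen, 34% were higher by 1 or more in inflamed HEC, and 2.78% in dedifferentiated HEC. The shares were 15.1% and 9.43% in matched cells and 12.8% and 6.71% with arithmetic means.

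Among these 15, S100a11, a small EF-hand calcium-binding protein, was the one most often higher when single cells of both groups were paired. Its FPKM was 129 in the lowest, 659 in the median and 3140 in the highest inflamed cell, against 0, 166 and 688 in dedifferentiated cells. The means were 9.46 ± 0.91 and 6.01 ± 2.83 (SD, n = 64 and 44 cells, as throughout). All 64 inflamed cells were above an FPKM of 100, the dedifferentiated cells spread from none up to the inflamed range, and the inflamed cell was the higher in 92.3% of all pairs of an inflamed and a dedifferentiated cell. Serpinb1a, an inhibitor of neutrophil serine proteases, was abundant in both groups but reached 78.9, 1898 and 10430.2 in the lowest, median and highest inflamed cell and 1.49, 346 and 2656 in dedifferentiated cells. The difference was 3.29, with the inflamed cell higher in 86.8% of pairs. Anxa1, a phospholipid-binding protein that limits leukocyte migration, had a median of 474 in inflamed and 7.57 in dedifferentiated cells, yet its highest single cell was a dedifferentiated one at 2916. Its difference of 3.43 was 0.93 with arithmetic means, which weight such cells more. Ehd3, which acts in endocytic recycling, was at FPKM 10 and above in 98.4% of inflamed and 75% of dedifferentiated cells, with medians of 502 and 54.5.

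Other members of the set differed mainly in how many cells held them. Mctp1, a calcium-binding membrane protein with C2 domains, reached an FPKM of 1 in 56 of 64 inflamed cells (87.5%, 76.8 to 94.4%) and 10 of 44 dedifferentiated cells (22.7%, 11.5 to 37.8%). Col18a1, the chain of basement membrane collagen XVIII, did so in 48 (75%) and 4 (9.09%), and Nudt4, a phosphohydrolase of inositol pyrophosphates, in 57 (89.1%) and 10 (22.7%). Tnfrsf9 is the costimulatory receptor 4-1BB, better known from activated lymphocytes. It was detected in 45 inflamed (70.3%) and 5 dedifferentiated cells (11.4%), with medians of 9.68 and 0. Ifi27l2a, an interferon-induced protein, had the largest difference at 3.68: no dedifferentiated cell exceeded 3.82, whereas the highest inflamed cell reached 2623 and 43 of 64 were at 1 or more. Ch25h, which makes 25-hydroxycholesterol, had medians of 164 and 1.96. Mcam, the endothelial adhesion molecule CD146, had medians of 81.8 and 0.725.

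The genes furthest higher in dedifferentiated HEC were likewise of many kinds. The 15 with the largest differences, at -4.64 to -2.29, included Apoe, Chp2, F8, Sult1a1, Pltp, Jun, Igfbp4, Tcn2, Nmt2, Dusp1, Fabp5, Txnip, Zfp36 and Tnfrsf26. All 15 stayed at -1 or less in matched cells and with arithmetic means (-3.78 to -1.34).

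Apoe, the apolipoprotein that carries cholesterol and phospholipids, was the gene furthest apart in either direction. Its FPKM was 1.47, 454 and 3721 in the lowest, median and highest inflamed cell and 727, 6820.4 and 20703 in dedifferentiated cells. The groups overlapped only where the highest inflamed cells met the lowest dedifferentiated ones, and the inflamed cell was the higher in 2.77% of pairs. The means of 7.95 ± 2.83 and 12.59 ± 1.10 gave the difference of -4.64. Pltp, which moves phospholipids between lipoproteins, had medians of 5.50 and 128. Fabp5, a fatty acid-binding protein, was at FPKM 10 and above in 29.7% of inflamed and 50% of dedifferentiated cells.

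F8 codes for coagulation factor VIII, of which endothelial cells are the main source. Its FPKM was 0, 0.09 and 92 in the lowest, median and highest inflamed cell and 0, 38.7 and 1115 in dedifferentiated cells, so the median inflamed cell was near 0 and the ranges overlapped. The carrier of factor VIII in plasma, Vwf, was also higher in dedifferentiated HEC, at medians of 35.3 against 4.73 (difference -1.71). Sult1a1, a phenol sulfotransferase, was detected in all 44 dedifferentiated cells and 49 of 64 inflamed ones, with medians of 224 and 22.6. Chp2, a calcineurin B homologue that binds sodium-proton exchangers, was detected in 32 of 44 (72.7%) and 10 of 64 cells (15.6%). Tcn2 carries vitamin B12 in plasma, Igfbp4 binds insulin-like growth factors and Txnip binds thioredoxin. Their differences were -2.62, -2.70 and -2.49. Several of these genes were present at low levels in most dedifferentiated cells and at high levels in fewer: Tnfrsf26, a member of the TNF receptor family, was detected in 88.6% of them but at FPKM 10 and above in 29.5%.

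**Figure D2:**
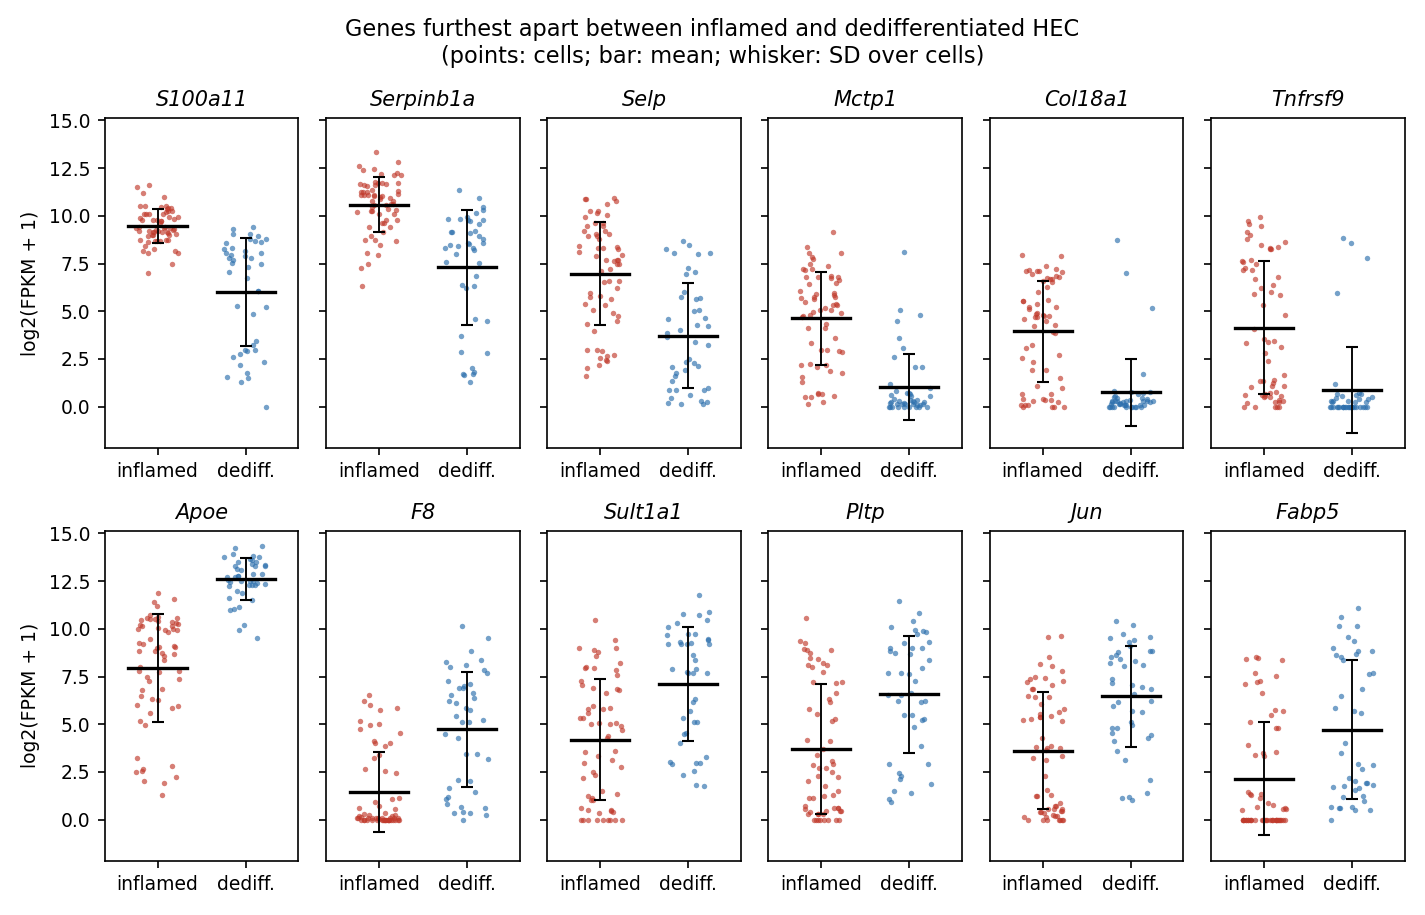
Log2(FPKM + 1) of 12 of the genes furthest apart, by cell, in inflamed (red, 64 cells) and dedifferentiated HEC (blue, 44 cells); bars are means and whiskers the SD over cells. S100a11 forms a tight band above an FPKM of 100 in inflamed cells, Apoe a tight band in dedifferentiated cells, and for the other genes cells of both groups reach the same range, with more of one group near 0.

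No gene of these 30 separated the groups completely, and how many of all genes would do so was not counted. As a description of the spread, the mean log2(FPKM + 1) of the 15 inflamed-high genes minus that of the 15 dedifferentiated-high genes was -2.13, 3.05 and 5.81 in the lowest, median and highest inflamed cell and -6.19, -3.20 and 1.8 in dedifferentiated cells. It was above 0 in 61 of 64 inflamed and 2 of 44 dedifferentiated cells, in the same cells from which the genes were chosen. The mean of the 79 homeostatic HEC served as a reference for which treated group lay further away. It was nearer to the dedifferentiated mean for 13 of the 15 inflamed-high genes, the exceptions being Nid1 and Tmem258. It was also nearer to the dedifferentiated mean for 10 of the 15 dedifferentiated-high genes, and nearer to the inflamed mean for 5, among them Apoe, Nmt2, Fabp5 and Tnfrsf26. For Apoe the homeostatic mean of 10.25 lay about midway between the treated means of 7.95 and 12.59, so its place among the 5 rests on a small margin.

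Genes of the lymphocyte entry program did not move one way. Of 23 genes for L-selectin ligand carriers and their enzymes that could be compared, 5 were higher by 1 or more in inflamed HEC and 2 in dedifferentiated HEC, with a median of 0.32 beside 0.40 for all genes. In matched cells the counts were 4 and 6, and with arithmetic means 2 and 5. Glycam1, the secreted sialomucin and main L-selectin ligand, was close in both groups: its FPKM was 207, 6349.5 and 115345 in the lowest, median and highest inflamed cell and 127, 7027 and 127279 in dedifferentiated cells, a difference of -0.20. The homeostatic mean of 15.13 was above both treated means, 12.50 ± 2.54 and 12.71 ± 2.33. Emcn, an endothelial sialomucin, was higher in dedifferentiated cells, with medians of 1218 and 405 (difference -1.32), as was Cd300lg, the sialomucin nepmucin, with 177 and 42.1 (-1.59). All 5 genes higher by 1 or more in inflamed HEC were enzymes of the ligand or of its sulfate donor, Gcnt1, B3gnt3, Papss1, Papss2 and Chst4, but not every enzyme shared the direction: the sulfotransferase Chst2 differed by -0.36 in all cells and by -1.45 in matched cells. Gcnt1, which starts the core 2 branch that carries the ligand, was detected in 49 of 64 inflamed (76.6%) and 21 of 44 dedifferentiated cells (47.7%). B3gnt3, which extends core 1, was detected in 53 (82.8%) and 19 cells (43.2%), a difference of 2.20. Papss1, which makes the sulfate donor, was detected in 19 and 2 cells, and its relative Papss2 differed by 1.47 in all cells but by -0.11 in matched cells. Chst4, the HEC sulfotransferase, differed by 1.08 on the log scale and by -0.15 with arithmetic means, so its direction rests on how cells are averaged. Fut7, the fucosyltransferase of the ligand, differed by 0.71, with medians of 122 and 44.2, and by -0.06 with arithmetic means.

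The chemokine of steady-state entry and those induced by interferon went in opposite directions. Ccl21a, which arrests rolling T cells, was the most abundant of these transcripts. Its FPKM was 87.5, 21032 and 141409 in the lowest, median and highest inflamed cell and 176, 64279 and 260221 in dedifferentiated cells. The difference was -2.04, with the inflamed cell higher in 24.5% of pairs. The mouse genome holds near-identical Ccl21 copies, so how fragments were divided among them is uncertain. Glycam1 and Ccl21a together made up a median of 4.06% of the FPKM of an inflamed cell and 11.8% of a dedifferentiated one. Cxcl9 and Cxcl10, ligands of CXCR3 on activated T cells, were detected in 44 and 38 of 64 inflamed cells (68.8% and 59.4%) and each in 15 of 44 dedifferentiated cells (34.1%). Cxcl9 had the highest single value in a dedifferentiated cell, at 7846, and its difference of 2.64 was 0.20 with arithmetic means. The homeostatic survival cytokine gene Il15 was higher in inflamed HEC, with medians of 72.8 and 4.47. Counted over the 11 chemokine and cytokine genes that could be compared, 3 were higher in inflamed HEC and 1 in dedifferentiated HEC. The counts were 3 and 2 in matched cells and 4 and 3 with arithmetic means. Their median was 0.37, beside 0.40 for all genes.

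P-selectin was the adhesion molecule furthest apart. Of 20 adhesion and junction genes compared, 4 were higher in inflamed HEC, namely Selp, Sele, Madcam1 and Cd47, and 1, Cd63, was higher in dedifferentiated HEC. The counts were 4 and 1 in matched cells and 3 and 2 with arithmetic means, but not of the same genes: in matched cells Sele was just under 1 and Cd63 was at -0.84. Among the 20, 18 were detected in at least 50% of one group's cells. In all cells 3 of these 18 were higher and 1 lower, beside 34% and 2.78% of all such genes. The median of the 20 was 0.38, beside 0.40 for all genes, so the list as a whole stood near all genes. Selp codes for P-selectin, which is stored in granules and catches leukocytes rolling on inflamed vessels. Its FPKM was 2.10, 201 and 1943 in the lowest, median and highest inflamed cell and 0.09, 10.4 and 412 in dedifferentiated cells, so all inflamed cells were above 1 while the upper dedifferentiated cells overlapped the middle of the inflamed range. Sele, which codes for the cytokine-induced E-selectin, was at FPKM 10 and above in 42.2% of inflamed and 9.09% of dedifferentiated cells. Madcam1, the addressin bound by integrin α4β7, reached an FPKM of 1 in 18 of 64 inflamed cells (28.1%, 17.6 to 40.8%). No dedifferentiated cell reached it (upper bound of the exact interval 8.04%), and the highest of the 44 was 0.59. Cd47, the ligand of SIRPα, had medians of 249 and 24.9. The integrin ligands Icam1 and Vcam1 differed by less than 1 (0.23 and 0.68), and on the other side of 0 with arithmetic means (-0.52 and -0.51). The junction protein gene Pecam1 differed by -0.89, with dedifferentiated cells at a median of 1313 and inflamed cells at 563. The atypical chemokine receptor gene of venules, Ackr1, had medians of 1358 in inflamed and 1440.1 in dedifferentiated cells. Its difference was 0.44 in all cells, 0.40 with arithmetic means and 1.07 in matched cells.

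**Figure D3:**
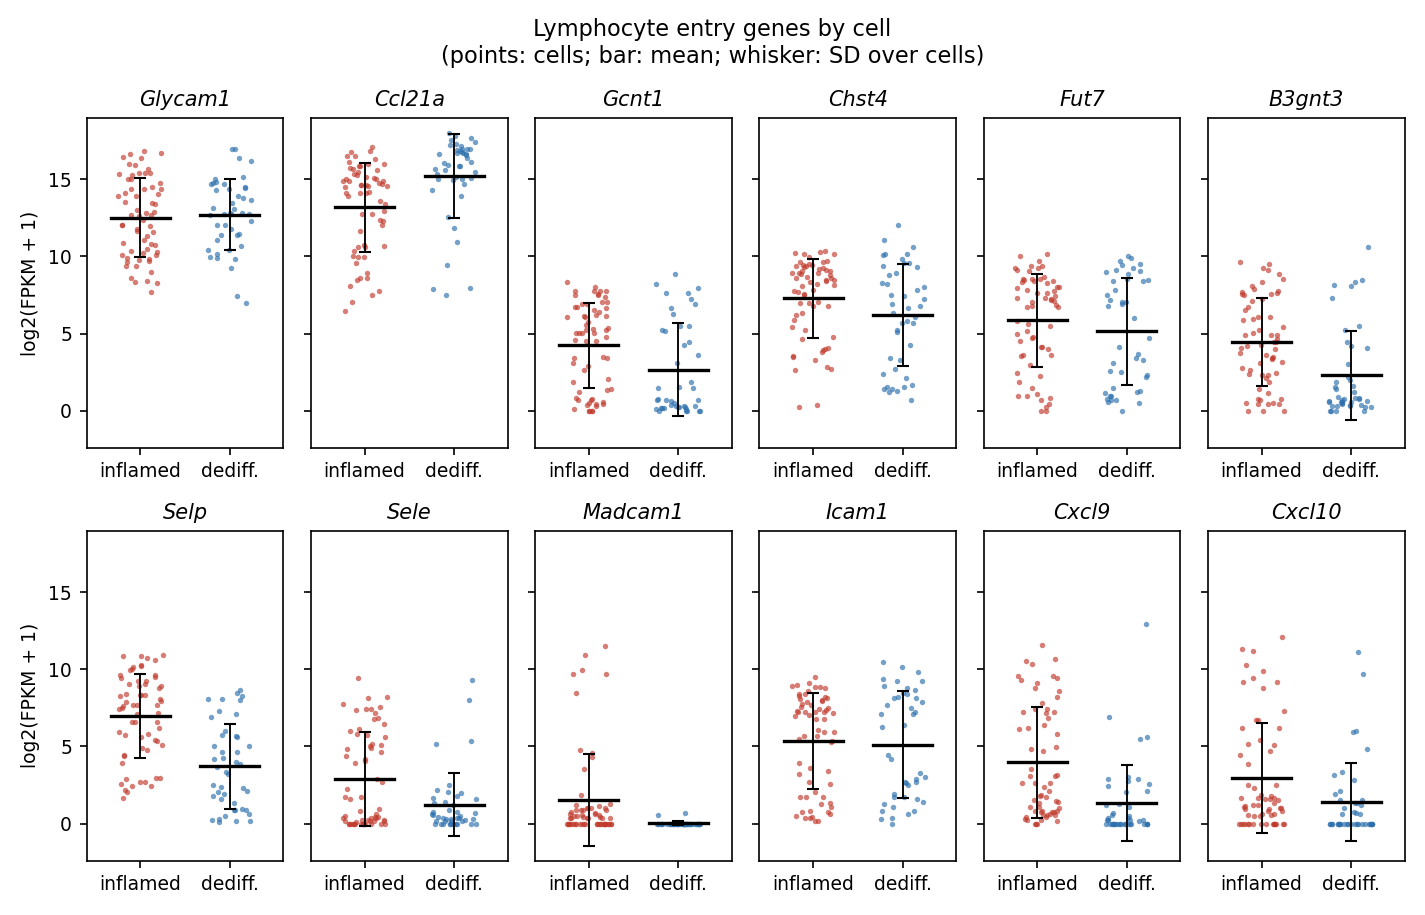
Log2(FPKM + 1) of 12 lymphocyte entry genes by cell in inflamed (red, 64 cells) and dedifferentiated HEC (blue, 44 cells); bars are means and whiskers the SD over cells. Glycam1 fills the same range in both groups, Ccl21a sits higher in dedifferentiated cells (difference -2.04), and Selp, B3gnt3, Cxcl9 and Madcam1 sit higher in inflamed cells.

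LTBR-Ig acts on the lymphotoxin pathway, and the genes of that pathway were compared next. The receptor feeds both arms of NF-kB: Nfkb2 and Relb code for the partners of the non-canonical arm, and Ubd is induced by NF-kB and by interferon. To show where NF-kB motifs lie, the RefSeq promoter windows (250 bases before to 50 after the start) of Nfkb2 and Ubd are printed in GRCm38.p6, with the letters GGG, any 2 bases and TTTCC in capitals.
Nfkb2 (chr19:46304487-46304786, + strand, 1 of 3 windows of the gene): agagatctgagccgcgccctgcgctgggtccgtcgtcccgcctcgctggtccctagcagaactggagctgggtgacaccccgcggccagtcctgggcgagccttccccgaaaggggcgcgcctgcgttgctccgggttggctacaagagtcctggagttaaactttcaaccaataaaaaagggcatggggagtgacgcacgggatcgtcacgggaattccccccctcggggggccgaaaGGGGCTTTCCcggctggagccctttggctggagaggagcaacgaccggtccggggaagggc
Ubd (chr17:37193642-37193941, + strand): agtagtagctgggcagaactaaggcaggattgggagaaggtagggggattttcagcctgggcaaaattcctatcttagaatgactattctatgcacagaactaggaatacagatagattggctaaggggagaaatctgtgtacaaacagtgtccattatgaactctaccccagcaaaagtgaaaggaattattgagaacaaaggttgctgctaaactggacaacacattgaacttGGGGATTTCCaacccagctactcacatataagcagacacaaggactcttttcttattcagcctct
The match begins at position -11 in Nfkb2 and -15 in Ubd, counted from the start of the transcript. Searched on both strands, the motif lay in a window of 6 of the 19 genes of the pathway list that had one (31.6%). They were Traf2, Traf3, Nfkb2, Nfkbia, Tnfaip3 and Ubd. The share was 1.90% of the 27025 RefSeq genes searched and 2.19% of the 6941 of them that were compared. A match describes the letters only.

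Of 22 lymphotoxin receptor and NF-kB genes, 8 were higher by 1 or more in inflamed HEC and none in dedifferentiated HEC (median 0.80, against 0.40 for all genes). Both in matched cells and after median-ratio scaling this was 2 and 1, and with arithmetic means 10 and 1. Over all genes compared, 15.8% were higher and 1.32% lower in all cells, and 22.1% and 13.9% with arithmetic means. In matched cells the shares of all genes were 7.19% and 5.83%, so the matched counts of the list were near them. Ltbr itself, the receptor gene, was detected in 44 of 64 inflamed (68.8%, 55.9 to 79.8%) and 14 of 44 dedifferentiated cells (31.8%, 18.6 to 47.6%), with medians of 16.5 and 0.395. Its difference of 1.88 was 0.72 in matched cells, under 1. Ubd, the ubiquitin-like modifier FAT10, was the most abundant member: its FPKM was 309, 6455 and 24186 in the lowest, median and highest inflamed cell and 6.88, 2532 and 27600.3 in dedifferentiated cells. The ranges overlapped almost fully at the top, and the low tail belonged to dedifferentiated cells. Ubd stayed at 1.11 in matched cells and so did Traf1, an adaptor of TNF receptors, at 1.04. Nfkb2 had medians of 2.86 and 0.135, and its difference of 1.28 was 0.53 in matched cells. Bcl3, Nfkb1, Tnip1 and Traf3 were between 1.01 and 1.12 in all cells and between 0.19 and 0.73 in matched cells. Relb, the partner of the Nfkb2 product, differed by 0.56, and the inhibitor gene Nfkbia by -0.44.

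Of the 30 gene lists, the interferon list had the highest median difference in all cells. Type I interferon acts through transcription factors that bind the interferon-stimulated response element. The windows of Isg15 and Ifit3 hold it more than once, and its core, TTTC, any 2 bases and TTTC on either strand, is in capitals. In Isg15 there are 3 overlapping matches on the reverse strand, read as GAAA, any 2 bases and GAAA.
Isg15 (chr4:156200769-156201068, - strand): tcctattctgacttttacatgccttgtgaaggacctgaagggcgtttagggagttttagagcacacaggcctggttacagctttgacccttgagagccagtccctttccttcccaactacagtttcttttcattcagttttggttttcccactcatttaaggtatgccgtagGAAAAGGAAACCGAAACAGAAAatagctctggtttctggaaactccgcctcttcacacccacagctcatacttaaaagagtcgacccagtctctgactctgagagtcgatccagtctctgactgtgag
Ifit3 (chr19:34583279-34583578, + strand): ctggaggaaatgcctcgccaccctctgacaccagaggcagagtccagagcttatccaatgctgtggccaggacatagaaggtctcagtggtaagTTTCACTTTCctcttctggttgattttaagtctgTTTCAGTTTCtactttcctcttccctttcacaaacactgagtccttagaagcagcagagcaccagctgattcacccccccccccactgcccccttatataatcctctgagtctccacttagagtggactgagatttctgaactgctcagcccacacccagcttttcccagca
The matches begin at -78, -72 and -66 in Isg15 and at -156 and -122 in Ifit3. The motif lay in 16 of 27 interferon genes with a window (59.3%) and in 12 of the 20 of them that were higher by 1 or more (60%), against 3.99% of the RefSeq genes searched and 4.05% of those compared. Its share was thus alike in members past 1 and in the list as a whole.

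Of 36 interferon genes, all of which could be compared, 26 were higher by 1 or more in inflamed HEC and none in dedifferentiated HEC, with a median of 1.37. In matched cells 22 and none passed, and the median stood 1.23 above that of all genes. With arithmetic means 7 and none passed, and the median stood 0.19 above that of all genes. Over all genes compared, 15.8% were higher by 1 or more in all cells, 7.19% in matched cells and 22.1% with arithmetic means. Among genes detected in at least 50% of one group's cells, as 29 of the 36 were, these shares were 34%, 15.1% and 12.8%. The transcription factor gene Irf7, which amplifies the type I response, was one of the members past 1. Its FPKM was 0.18, 24.8 and 780.1 in the lowest, median and highest inflamed cell and 0, 0.655 and 535 in dedifferentiated cells. The ranges overlapped, but 56 of 64 inflamed cells (87.5%) and 18 of 44 dedifferentiated cells (40.9%) were at 1 or more. Isg15, the ubiquitin-like modifier, was detected in 34 (53.1%) and 9 cells (20.5%), and Ube2l6, the enzyme that conjugates it, in 44 (68.8%) and 12 (27.3%). Zbp1, a sensor of left-handed nucleic acid, was detected in 39 and 9 cells. Oasl2, Ifi44 and Rtp4, all interferon-induced, differed by 2.95, 2.69 and 2.63. Ifit3 differed by 2.01, but its highest cell was dedifferentiated, at 4075 against 2253, and with arithmetic means it differed by 0.39. Stat2, a signal transducer of the type I receptor, differed by 1.5, and the transcription factor gene Irf1 by 0.30.

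Single cells carried the interferon genes in different numbers. Of the 36, the lowest, median and highest inflamed cell had 7, 19 and 34 at FPKM 10 and above, and dedifferentiated cells had 2, 9 and 33. The widest dedifferentiated cell thus came within 1 gene of the widest inflamed cell. Ly6a, the GPI-anchored protein Sca-1 and interferon-inducible, was present in every cell, with an FPKM of 50.3, 3184 and 11678 in the lowest, median and highest inflamed cell and 6.83, 729 and 9603 in dedifferentiated cells (difference 2.66).

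**Figure D4:**
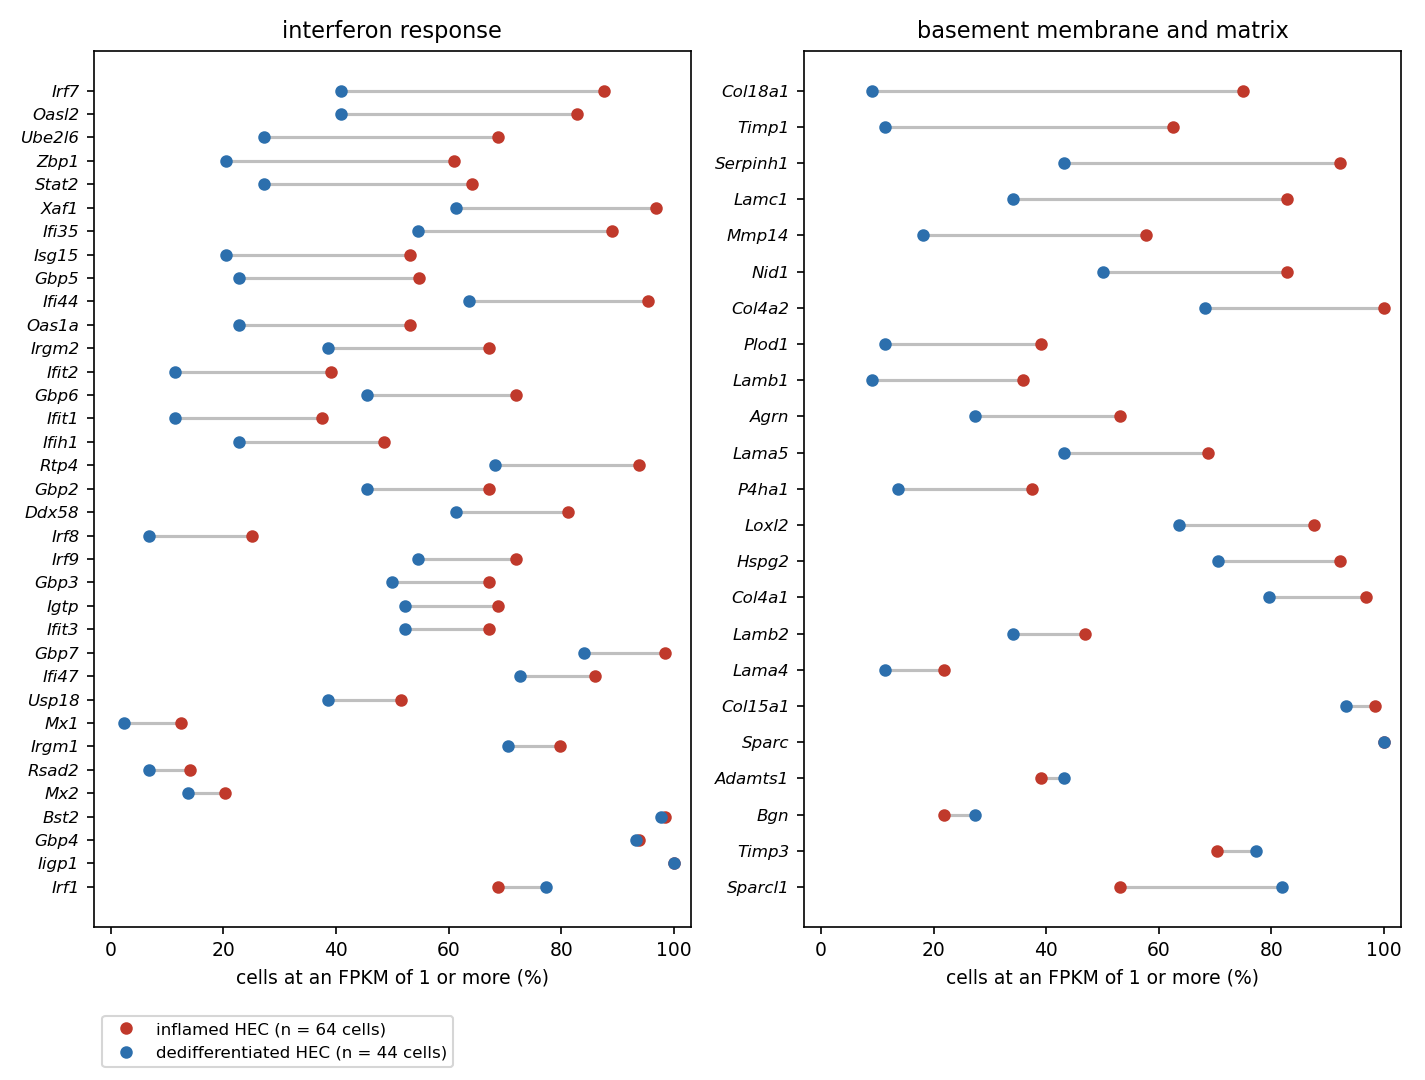
Percent of cells in which each gene was detected, at an FPKM of at least 1 (x axis), for compared genes of the interferon list (left) and the basement membrane and matrix list (right), in inflamed (red, 64 cells) and dedifferentiated HEC (blue, 44 cells). A grey line joins both values of a gene; at Irf7 they are 87.5% and 40.9%, and at Col18a1 75% and 9.09%.

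Antigen presentation genes differed by class. Of 15 MHC class I and immunoproteasome genes, 7 were higher by 1 or more in inflamed HEC in all cells and 5 in matched cells. It was 2 after median-ratio scaling and none with arithmetic means, and none was lower by 1 in any of these. All 15 were detected in at least 50% of one group's cells. Of all such genes 34% were higher in all cells, 15.1% in matched cells and 12.8% with arithmetic means, so the arithmetic count was below its share. The heavy chain genes H2-K1 and H2-D1, which present peptides to CD8 T cells and were abundant in every cell, differed by -0.09 and -0.04, with medians in inflamed cells of 2009 and 4418. Their light chain gene B2m differed by 0.51 at very even levels, with medians of 9811 and 6710.5, and the inflamed cell was higher in 75.2% of pairs. The genes past 1 were less abundant ones, among them H2-Q4, a non-classical heavy chain (1.58), and Psmb10, an immunoproteasome subunit (1.88). H2 genes have close relatives, so the division of fragments among them is uncertain. Of 6 MHC class II genes compared, none was higher in inflamed HEC and 2, Cd74 and H2-DMa, were higher in dedifferentiated HEC (3 in matched cells and with arithmetic means). Over all genes compared, 1.32% were higher in dedifferentiated HEC in all cells, 5.83% in matched cells and 13.9% with arithmetic means. Cd74 is the invariant chain that guides class II molecules. Its FPKM was 0, 5.43 and 2817 in the lowest, median and highest inflamed cell and 0.77, 55.4 and 3357 in dedifferentiated cells. Almost all dedifferentiated cells held some Cd74, and the share with at least 3 class II genes at an FPKM of 10 was alike, 13 of 64 (20.3%, 11.3 to 32.2%) and 9 of 44 (20.5%, 9.80 to 35.3%). B cells and dendritic cells also express these genes, and without the cells that held markers of another cell type Cd74 differed by -2.00.

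The median of the basement membrane list stood above that of all genes in all cells, in matched cells and with arithmetic means (by 0.61, 0.55 and 0.60). Of 23 matrix genes compared, 12 were higher by 1 or more in inflamed HEC and 1 in dedifferentiated HEC, with a median of 1.01. The counts were 9 and 3 in matched cells and 8 and 3 with arithmetic means. Over all genes compared, 15.8% were higher and 1.32% lower in all cells. These shares were 7.19% and 5.83% in matched cells and 22.1% and 13.9% with arithmetic means. Col4a1 and Col4a2 code for the paired chains of collagen IV, the network of every vessel's basement membrane. The FPKM of Col4a1 was 0.37, 98.6 and 473 in the lowest, median and highest inflamed cell and 0.38, 8.84 and 159 in dedifferentiated cells. The median inflamed cell lay inside the upper part of the dedifferentiated range, and the inflamed cell was higher in 81.1% of pairs. Its partner Col4a2 differed by 2.39. Nid1, which ties laminin to collagen IV, had medians of 48.7 and 0.92, and the laminin chain genes Lamc1 and Lamb1 were detected in 82.8% and 35.9% of inflamed and 34.1% and 9.09% of dedifferentiated cells. Serpinh1, the collagen chaperone, was detected in 92.2% and 43.2%. Sparc, a collagen-binding matricellular protein, was high in every inflamed cell, at 193 or more, and differed by 1.28. Genes that remodel matrix were also on the inflamed side: Timp1, an inhibitor of metalloproteinases, was detected in 40 of 64 and 5 of 44 cells, and Mmp14, a membrane-bound metalloproteinase, in 37 and 8. Sparcl1, a relative of Sparc, was the gene higher in dedifferentiated HEC, at -1.44. Of 9 markers of fibroblastic reticular cells, which also make matrix, 6 were listed at 0 in all inflamed and 7 in all dedifferentiated cells, in both cases with the collagen genes Col1a1 and Col1a2. The chemokine gene Ccl19 of that list was detected in 9 of 64 inflamed cells, up to 1857, and was listed at 0 in all dedifferentiated cells. Summed log2 levels of the list ran from 0 to 10.9 in inflamed and from 0 to 0.53 in dedifferentiated cells, no cell held 3 of its markers at FPKM 10, and their part in the matrix counts was not tested.

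Several S100, annexin and actin-regulating genes were also higher in inflamed HEC, with 1 exception among annexins. Of 26 compared, 10 were higher in inflamed HEC against 1 in dedifferentiated HEC, with 9 and 3 in matched cells and 4 and 1 with arithmetic means. Of the 26, 25 were detected in at least 50% of one group's cells. Among all such genes 34% were higher and 2.78% lower, so the count in all cells was near that share. The shares were 15.1% and 9.43% in matched cells and 12.8% and 6.71% with arithmetic means. S100a10 and Anxa2, which form a complex at the plasma membrane, differed by 2.24 and 2.16. Anxa3, another phospholipid-binding annexin, differed by 2.12. Anxa5, which binds phosphatidylserine and limits clotting, was instead higher in dedifferentiated HEC: its FPKM was 0, 198 and 2084 in the lowest, median and highest inflamed cell and 4.05, 728 and 2569 in dedifferentiated cells, a difference of -2.18. Pfn1 and Tmsb10, which bind monomeric actin, were present in every cell and differed by 1.69 and 1.24, with the inflamed cell higher in 78.6% and 83.3% of pairs.

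Mitosis and cell cycle genes were found in more inflamed than dedifferentiated cells. Of 31 mitosis and cell cycle genes 23 could be compared, and 9 were higher by 1 or more in inflamed HEC and none in dedifferentiated HEC. This was 3 and none in matched cells, and 20 and none with arithmetic means, which weight high cells more. Over all genes compared, 15.8% were higher and 1.32% lower in all cells. These shares were 7.19% and 5.83% in matched cells and 22.1% and 13.9% with arithmetic means. The counts of cells that follow were made in all cells, not in cells matched on gene number. At least 3 of the 31 stood at an FPKM of 10 in 52 of 64 inflamed (81.2%, 69.5 to 89.9%) and 15 of 44 dedifferentiated cells (34.1%, 20.5 to 49.9%), and the widest cells held 22 and 6. In a core of 21 mitotic genes, trimmed from the list after its values were seen, 9 of 64 inflamed cells (14.1%, 6.64 to 25%) held at least 3 at FPKM 10 and above, and the widest held 15. No dedifferentiated cell did (upper bound of the exact interval 8.04%), and none of the 44 held more than 1. Top2a, the topoisomerase that untangles chromosomes, Ccnb2, a mitotic cyclin, and Uhrf1, which maintains DNA methylation, were listed at 0 in all 44 dedifferentiated cells and detected in 21, 13 and 24 of 64 inflamed cells. Mki67, the proliferation marker, was at FPKM 10 and above in 14.1% of inflamed and 4.55% of dedifferentiated cells, and the highest value was in a dedifferentiated cell, at 153 against 106. Of 23 DNA replication genes compared, 7 were higher in inflamed HEC against none in dedifferentiated HEC. It was 4 and none in matched cells and 14 and 1 with arithmetic means, to be read against the same shares of all genes. The replicative helicase genes Mcm4 and Mcm5 were at FPKM 10 and above in 17.2% and 14.1% of inflamed cells and in no dedifferentiated cell. At least 3 of the 26 listed replication genes stood at an FPKM of 10 in 38 of 64 inflamed (59.4%, 46.4 to 71.5%) and 8 of 44 dedifferentiated cells (18.2%, 8.19 to 32.7%). A wider difference concerned Ccnd1, the growth-factor-induced cyclin D1: all 64 inflamed cells were at 3.78 or more, with medians of 225 and 62.9 and a difference of 2.23.

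Several immediate early genes lay on the dedifferentiated side. Of 19 genes known to respond to tissue dissociation and heat, 2 were higher by 1 or more in inflamed HEC and 6 in dedifferentiated HEC, with a median of -0.25; in matched cells this was 1 and 7, and with arithmetic means 1 and 8. Over all genes compared, 15.8% were higher and 1.32% lower in all cells. These shares were 7.19% and 5.83% in matched cells and 22.1% and 13.9% with arithmetic means. The 6 were Jun, Fos, Fosb, Dusp1, Btg2 and Zfp36, and the 2 were the heat shock protein genes Hsp90aa1 (1.85) and Hsph1 (1.39). Jun codes for a subunit of AP-1. Its FPKM was 0, 12 and 784 in the lowest, median and highest inflamed cell and 1.03, 119.6 and 1336 in dedifferentiated cells. All 44 dedifferentiated cells held it, while 41 of 64 inflamed cells reached an FPKM of 1. Fos, its partner, differed by -1.82. In homeostatic HEC the means of Fos (7.75), Fosb (2.94), Btg2 (5.38) and Zfp36 (6.75) were above both treated means. Those of Jun (5.98) and Dusp1 (5.53) lay between them. Dusp1, a phosphatase that ends MAP kinase signalling, and Zfp36, which speeds decay of cytokine mRNA, had medians of 6.71 and 0.92 in inflamed and 83.1 and 126 in dedifferentiated cells. Egr1, a zinc finger factor of the same class, differed by -0.71, and by 0.38 with arithmetic means. Cells of both groups went through dissociation and sorting, and the part of handling time in these values was not tested. The promoter of Dusp1 holds a cAMP response element, TGACGTCA, shown in capitals.
Dusp1 (chr17:26508423-26508722, - strand): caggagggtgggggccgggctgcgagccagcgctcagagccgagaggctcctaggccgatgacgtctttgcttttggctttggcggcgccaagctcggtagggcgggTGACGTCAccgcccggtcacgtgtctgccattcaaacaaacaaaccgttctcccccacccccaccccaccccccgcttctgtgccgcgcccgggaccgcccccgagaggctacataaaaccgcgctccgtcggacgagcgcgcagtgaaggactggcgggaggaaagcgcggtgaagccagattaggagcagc
The element begins at -143. It lay in a window of 2 of the 15 list genes searched, Dusp1 and Btg2, both among the 6 higher in dedifferentiated HEC, against 3.70% of genes compared.

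Among 16 genes of capillary identity and lipid uptake that could be compared, 2 were higher by 1 or more in inflamed HEC and 3 in dedifferentiated HEC. In matched cells it was none and 6, and with arithmetic means 4 and 2, so the balance of the list turned with the way of averaging. The 3 were Apoe, Fabp4 and Fabp5, and the 2 were Ly6c1 and Rgcc. Fabp4, a fatty acid-binding protein of capillary endothelium, had an FPKM of 0, 209.9 and 6412 in the lowest, median and highest inflamed cell and 6.26, 1082 and 13863 in dedifferentiated cells. The ranges overlapped widely and the difference was -1.95. Ly6c1, a surface protein of capillary cells, lay on the other side, at 1.57, with medians of 731 and 27.8 and highest cells at 14155 and 7976. Of 15 lysosomal genes, 1 was higher in inflamed and 2 in dedifferentiated HEC (2 and 4 in matched cells, 1 and 4 with arithmetic means). Ctsd, an aspartic protease, had medians of 62.6 and 277, and Gm2a, the activator of ganglioside breakdown, of 51.1 and 178. Lamp1, a lysosomal membrane protein, was the one higher in inflamed HEC (1.81). Ctla2a, a cysteine protease inhibitor of endothelial cells, was present in every cell and narrow in spread, at means of 9.62 ± 1.06 and 10.85 ± 1.03.

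Complement and acute-phase genes as a group stood near all genes. Of 16 acute-phase, complement and antibacterial genes that could be compared, 5 were higher by 1 or more in inflamed HEC and none in dedifferentiated HEC, which was 3 and 1 in matched cells and 2 and 3 with arithmetic means. Their median was 0.26, below the 0.40 of all genes, and among the 10 detected in at least 50% of one group's cells 4 were higher, beside 34% of all such genes. Cfb, complement factor B of the alternative pathway, had medians of 355 and 78.5, and Cd55, which protects cells from complement, of 47 and 0.91. C1s1 and C1ra, proteases of the classical pathway, differed by 1.90 and 1.68 in all cells and by 0.14 and 0.50 in matched cells. Socs3, an inhibitor of cytokine receptors, differed by 1.29 and by 1.6. Lrg1, a secreted glycoprotein of inflamed vessels, was abundant and level, with medians of 2881 and 3535 (difference -0.06). Its means of 11.41 ± 1.03 and 11.47 ± 1.10 were both above the homeostatic mean of 9.99. Of 15 sterol genes, 4 were higher in inflamed HEC and none in dedifferentiated HEC (3 and none in matched cells, 6 and none with arithmetic means). The 4 were Ch25h, the prenyl diphosphate synthase gene Fdps (1.61), the sterol sensor partner Insig1 (1.15) and Hmgcs1 (1.05), which makes HMG-CoA for sterol synthesis.

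Angiogenic and arterial genes showed few differences of 1 or more, while venous genes differed in both directions. Of 10 venous genes, 2 were higher in inflamed and 3 in dedifferentiated HEC, with 2 and 3 in matched cells and 1 and 3 with arithmetic means. Ephb4, the venous ephrin receptor, differed by 1.15 in all cells and by 0.05 in matched cells. Nrp2, a co-receptor for semaphorins and VEGF-C, was higher in dedifferentiated HEC, with medians of 31.8 and 7.59. Of 14 angiogenic genes 1 was higher in each direction, but 1 and 3 both in matched cells and with arithmetic means. Of 7 arterial genes that could be compared none passed 1 in all or in matched cells, and 1 was higher with arithmetic means. Klf2, the shear-induced factor that holds endothelium quiescent, was detected in 46 of 64 inflamed (71.9%) and 18 of 44 dedifferentiated cells (40.9%), a difference of 1.61 that was 0.39 in matched cells. Of 11 flow-responsive and anticoagulant genes, 2 were higher in inflamed HEC and 1, Txnip, in dedifferentiated HEC, which turned to 1 and 2 both in matched cells and with arithmetic means. Among 10 immune membrane protein genes 3, Tnfrsf9, Ly6a and Ly6i, were higher in inflamed HEC and 1, Ctla2a, in dedifferentiated HEC, and the counts were also 3 and 1 in matched cells and with arithmetic means. Of 10 lysophospholipid genes 2 were higher and 1 lower in all cells, but none and 1 in matched cells and none and 3 with arithmetic means, so this balance turned. They included Enpp2, which codes for autotaxin and was in every cell, with medians of 958 and 1764 (difference -0.69). Spns2, the exporter of sphingosine 1-phosphate, differed by 1.77 in all cells and by 0.63 in matched cells.

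Genes of metabolism and protein handling are mostly widely detected ones. Their counts, over all members compared, are set beside the shares over all genes detected in at least 50% of one group's cells. These shares were 34% higher and 2.78% lower in all cells. They were 15.1% and 9.43% in matched cells and 12.8% and 6.71% with arithmetic means. Counts near those shares say nothing about a list. Of 30 oxidative phosphorylation genes, 14 were higher by 1 or more in inflamed HEC and none in dedifferentiated HEC, which became 6 and 4 in matched cells and 2 and 1 with arithmetic means. Of 15 glycolysis genes, 7 and none became 2 and 2 in matched cells and 2 and 1 with arithmetic means. Ldha, which makes lactate, and Pgam1, a mutase of the lower pathway, were the ones that stayed in matched cells, at 2.26 and 2.01. Of 38 genes for entry into the endoplasmic reticulum and folding, 9 were higher and 1 lower in all cells, with 4 and 1 in matched cells and 4 and 2 with arithmetic means. Sec11c, a catalytic subunit of the signal peptidase, was on the inflamed side (2.06), and Spcs3, a non-catalytic subunit of the same complex, on the dedifferentiated side (-2.08), with medians of 10.5 and 155. The 26 Golgi and vesicle genes counted 11 and none in all cells, 2 and 2 in matched cells and 1 and none with arithmetic means. The 20 translation factors counted 8 and none, 2 and 1, and 1 and 1 in that order, and the 24 nucleolar genes 10 and none, 4 and 2, and 8 and 2. Only 14 of the 24 nucleolar genes and 12 of the 15 glycolysis genes were so widely detected. In both cases 7 of these were higher in all cells. Of these lists the proteasome had the largest share past 1 in all and in matched cells: 17 of 25 subunits were higher in all cells, 8 in matched cells and 1 with arithmetic means, with none lower. Its median fell from 1.18 in all cells to 0.31 in matched cells. Psmc3 and Psmc6, ATPases of the regulatory particle, differed by 2.08 and 2.12 in all cells and by 1.03 and 0.75 in matched cells. Of 82 ribosomal protein genes, 5 were higher in inflamed HEC in all cells, with a median of 0.28. In matched cells 2 were higher and 3 lower, with arithmetic means 2 and none, and after median-ratio scaling 3 were higher and 5 lower.

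**Figure D5:**
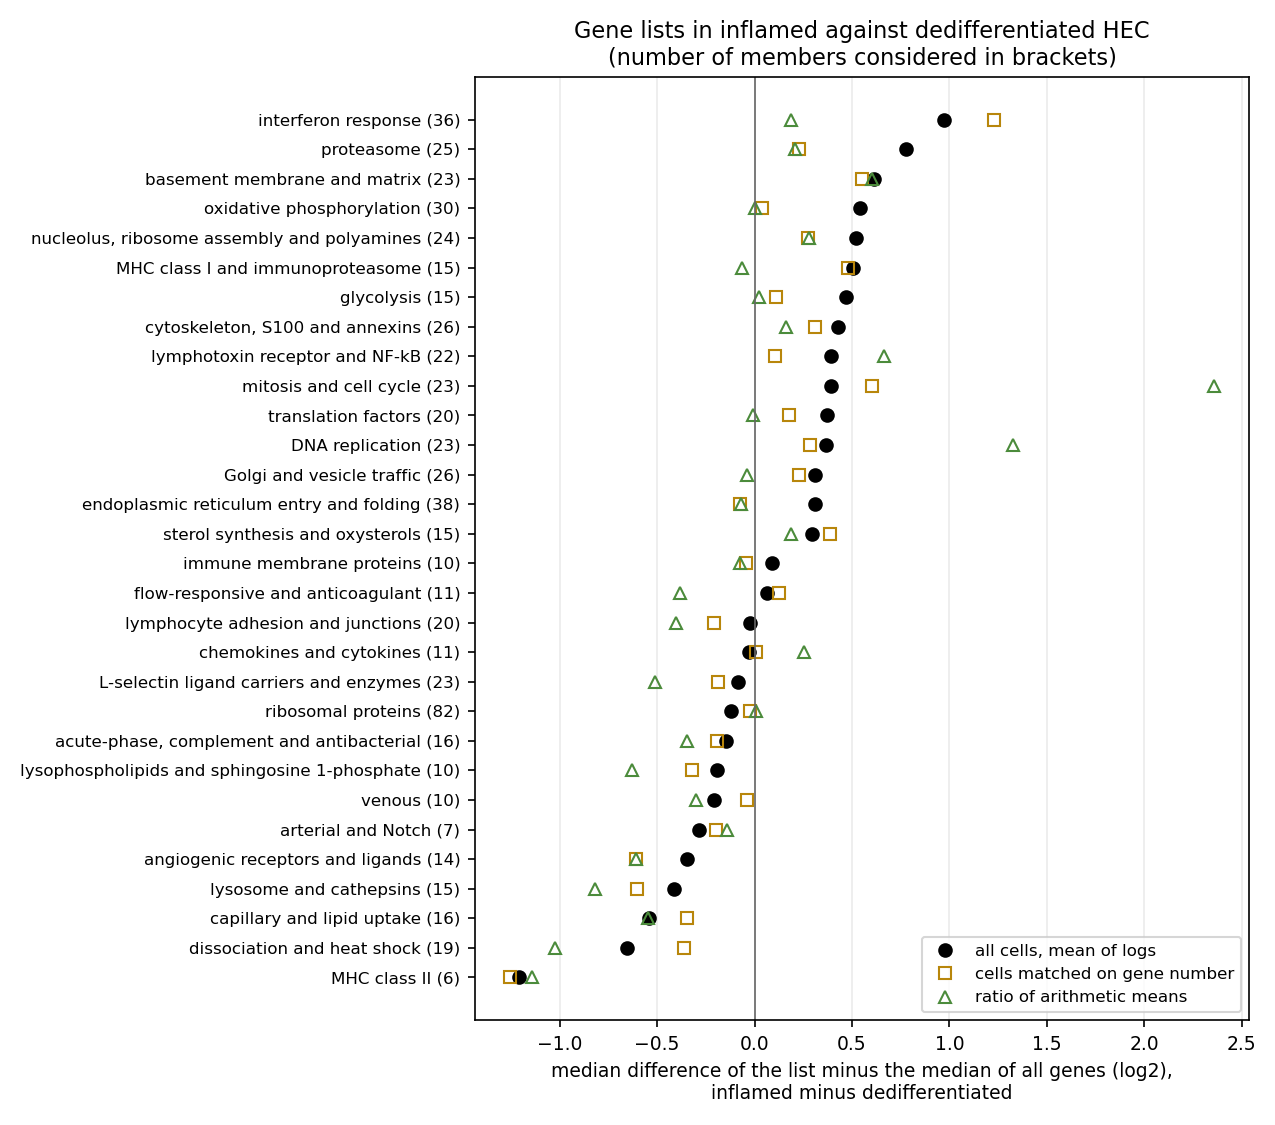
Median difference of each gene list minus the median of all genes (x axis, log2, inflamed minus dedifferentiated), for all cells (black circles), cells matched on gene number (open squares) and arithmetic means (open triangles), with the number of members compared in brackets. The interferon list lies right of 0 under all 3 (0.97, 1.23 and 0.19), the matrix list too (0.61, 0.55 and 0.60), the MHC class II list lies left of 0 (-1.21, -1.25 and -1.14), and oxidative phosphorylation is near 0 in matched cells (0.04).

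For location, in GRCm38 with GENCODE M21, Apoe spans chr7:19696109-19699188, Selp chr1:164115264-164150026, S100a11 chr3:93520488-93526287, Serpinb1a chr13:32842092-32851185, Irf7 chr7:141262706-141266481, Glycam1 chr15:103562759-103565081 and Ccl21a chr4:42772860-42773993.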

How the data were processed

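Single-cell RNA was measured in HEC sorted from mouse lymph nodes, with 1 library per cell. The authors deposited FPKM values for 24049 gene symbols in 1 table. The tools named, per the submitters' processing notes, were RSEM 1.2.18 and CASAVA 1.8 with build mm10. Their order and settings were not given in the sources used here. Zeros made up 75.2% of the values of the cells compared. All columns of both groups were used, with cells grouped by their labels and the inflamed cells 43 and 60 averaged as FPKM.

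From the deposited FPKM, log2(FPKM + 1) was computed here, with the mean and SD over cells per group and the difference of means (Python 3.11.15, numpy 2.4.6, pandas 2.3.3, scipy 1.17.1, matplotlib 3.10.9). Genes were considered where over 10% of either group's cells reached an FPKM of 1 (9167 genes), and a difference of 1 or more was counted. Since every deposited sample is a single cell of an unnamed animal, no test was run, SDs are spread over cells, and intervals cover counting error over cells only. FPKM are not counts: depth was approximated from the steps of low values over 2975 single-transcript genes. Named genes were the 15 largest differences each way among genes detected in at least 50% of one group's cells, without predicted names, ribosomal protein, haemoglobin and small RNA genes, plus members of 30 gene lists and 11 cell type marker lists. Of the genes chosen this way or on a list, 2 are not reported here by name. The members and the lists were chosen with earlier results of these data known. In the lists, 2 symbols had no match. Gene positions are from GENCODE M21 (94.6% of symbols) and promoter windows from RefSeq (GRCm38.p6). Windows on chromosome 18 were left out of the motif search. Alternatives were other pseudocounts, filters, scalings and averages, matched cells, the exclusion of cells with other cell type markers, and cells 43 and 60 counted separately. The scripts were tested on simulated data.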

Additional observations from a re-analysis of the deposited data

How the results depend on the processing

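The share of genes higher by 1 or more in inflamed HEC was 15.8%. It was 36.5% with a pseudocount of 0.1, 2.75% with a pseudocount of 10, 9.54% with no filter on low values, 34% with the filter at 50% of cells, 8.11% with median-ratio size factors and 7.19% in matched cells. The share higher in dedifferentiated HEC was 1.32%. In the same order of settings it was 3.89%, 0.545%, 0.796%, 2.78%, 3.11% and 5.83%, and it was 13.9% with arithmetic means. The median over all genes was 0.40, and 0.71, 0.14, 0.20, 0.17 and 0.08 with a pseudocount of 0.1, a pseudocount of 10, median-ratio size factors, arithmetic means and matched cells. Among named genes past 1 and list medians well away from that of all genes, directions reversed for Chst4 (-0.15) and Nfe2l2 (-0.073) with arithmetic means, for Papss2 in matched cells (-0.11) and for the median of the MHC class I list relative to all genes with arithmetic means (-0.062). Smaller differences also turned, among them those of Vcam1 (-0.51), Icam1 (-0.52) and the Golgi list relative to all genes (-0.04) with arithmetic means and of the endoplasmic reticulum list in matched cells (-0.08). The cause was not tested. Without the cells holding markers of another cell type, 23 interferon genes and 12 matrix genes were higher in inflamed HEC and 6 dissociation genes lower, against 26, 12 and 6. No paired analysis was possible because no test was run and the numbers in the labels only name cells. FPKM without molecular tags limit low genes: a 0 can be a transcript missed in that cell.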

Other observations

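Low and high levels of a gene did not always side with the same group. Car4, a carbonic anhydrase of capillaries, was detected (FPKM of at least 1) in 72.7% of dedifferentiated and 14.1% of inflamed cells, but at FPKM 10 and above in 2.27% and 9.38%, and its highest inflamed cell was at 2093 against 24.2. The log2 difference was -0.88 and the arithmetic one 3.57. Ccl21b, a near-identical copy of Ccl21a, likewise differed by -0.38 on the log scale and by 2.07 with arithmetic means. Lyve1, a hyaluronan receptor of lymphatic endothelium, was detected in 20 of 64 inflamed and 2 of 44 dedifferentiated cells, while the lymphatic factor Prox1 was listed at 0 in all of them. Ebf1, a transcription factor of B cells and of some stromal cells, was at FPKM 10 and above in 50% of inflamed and 22.7% of dedifferentiated cells.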
